A study of Mus musculus with 12 samples.

Results

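Retrieval-extinction is a training procedure that updates a fear memory by recalling it shortly before extinction. Its effect on small RNA was described here by comparing the basolateral amygdala (BLA) of trained mice, the RE group, with that of unshocked control mice, the C group. The 6 libraries compared, RE3, RE4 and RE5 against C1, C2 and C3, are those whose labels give these groups, out of 12 libraries in the series, and each came from 1 mouse. All 1060 mature miRNAs of the count table were considered, and 431 of them passed the filter on low counts and were tested. All mice were male C57BL/6J animals of 10 weeks. RE mice were conditioned with tones paired with foot shocks, and a day later heard 1 retrieval tone without shock, spent 1 h in the home cage and then went through 2 extinction sessions of repeated tones without shock. C mice went through the conditioning procedure without foot shocks. The BLA was taken 1 h after the last training in RE mice, and in C mice at the time point of the fear conditioned group (F). RE and C mice therefore differed in shock, in tone exposure, in retrieval and in the day of sampling, and with a single control group these cannot be told apart. The extinction group (E), conditioned and extinguished without the retrieval tone, is the nearest group to RE and was used where a difference from plain extinction was tested.

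MiRNAs are short RNAs that load into Argonaute proteins and repress mRNAs whose target sites pair with the seed, bases 2 to 8 of the miRNA. A hairpin precursor gives a 5p arm and a 3p arm, and several hairpins are often cut from a single transcript, so that miRNAs of a cluster or of a host gene tend to move together. In the BLA, where tones become linked to shocks during fear learning, neuronal miRNAs such as miR-9, miR-124 and miR-128 are abundant, while other families mark glia, vessels, blood, choroid plexus or epithelia.

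The total count was 1490449 to 1694940 in the C libraries and 1093194 to 1925516 in the RE libraries, and 586 to 670 miRNAs were detected in each of these 6. Levels are given as counts per 1e+06 counts (CPM) after scaling the libraries by TMM, edgeR's trimmed mean of M-values. The neuronal markers were present, with miR-9-5p at 22622 to 31399 CPM and miR-128-3p at 39006 to 68115 CPM in the 6 libraries. The miR-183, miR-96 and miR-182 cluster, which marks retina and other sense organs, summed to 48.8 to 315 CPM. The submitters' note on the design speaks of retinal profiles, while the sample labels give amygdala. C2 and RE4 belong to a set of 4 libraries in which let-7g-5p was the most counted miRNA, while miR-148a-3p led in the other 8, and these 4 stand apart from the rest. The set holds 1 library of each group, so it is balanced in number between RE and C. C2 and RE4 were not alike in scaling, with TMM factors of 1.233 and 0.937, against 0.943 to 0.972 in the other C and RE libraries. The set also widens the spread: the common dispersion was 0.184, against 0.0294 with a term for the set. Values with this term, and in the other 8 libraries alone, are therefore given beside the main ones.

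The study's general criterion took miRNAs with an unadjusted p under 0.05 whose log2 fold change was 1 or more in either direction; a lower fold limit that it also set for RE against E was not used here. By edgeR's quasi-likelihood test, 12 miRNAs passed this criterion (2.78% of the 431 tested), 7 of them higher in the RE group (1.62%) and 5 lower (1.16%). The higher ones were miR-184-3p, miR-200a-3p, miR-200b-3p, miR-429-3p, miR-206-3p, miR-128-1-5p and miR-34a-5p. The lower ones were miR-448-3p, its form with 1 base less, miR-3552, miR-7a-5p and miR-344f-3p. An unadjusted p under 0.05 was reached by 24 miRNAs (5.57%), 14 of them higher (3.25%) and 10 lower (2.32%). None passed an adjusted p of 0.05 in edgeR, where the smallest adjusted p was 0.288, so every miRNA below is described by its values, without a call. DESeq2 called 3 at an adjusted p under 0.05, miR-1298-3p, miR-184-3p and miR-376b-3p. When a term for the library set was added, a choice made after seeing the data, 14 miRNAs met the criterion (3.25%), 8 higher (1.86%) and 6 lower (1.39%). An adjusted p under 0.05 was then reached by 7 (1.62%): miR-1298-3p as the lower one, and miR-184-3p, miR-132-5p, miR-181a-5p, miR-128-1-5p, miR-24-2-5p and a shorter form of miR-24-3p as higher ones. In the other 8 libraries it was reached by 4 (0.943%), miR-184-3p, miR-34a-5p, miR-1298-3p and miR-143-3p.

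**Figure D1:**
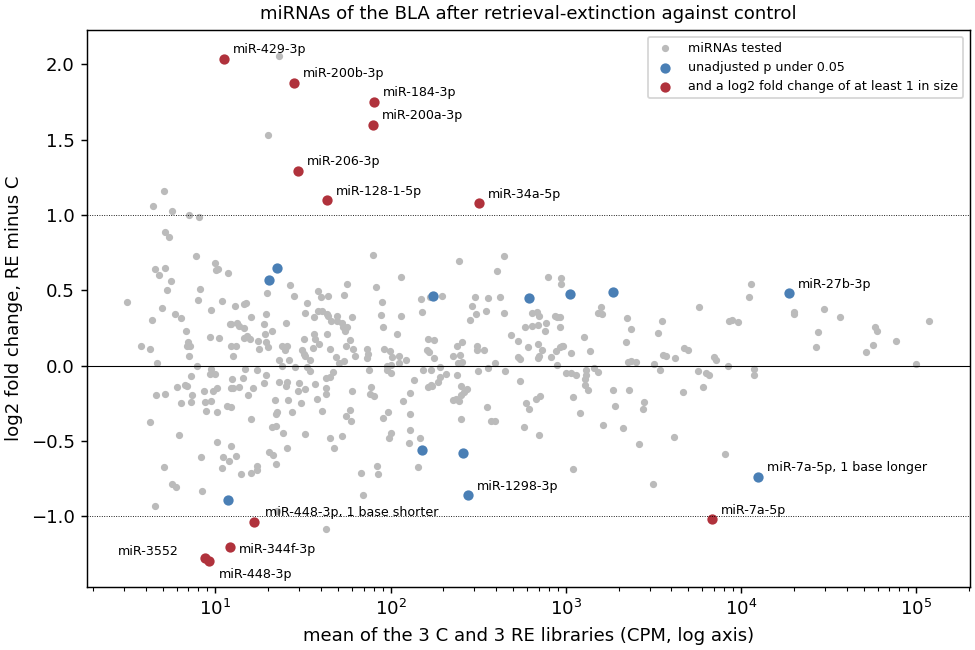
Each point is 1 of the 431 miRNAs tested, by its mean CPM over the 3 C and 3 RE libraries (log axis) and its log2 fold change, RE minus C. The 12 miRNAs past the criterion, in red, include both low and high miRNAs, with 7 above and 5 below 0.

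The groups did not overlap for 33 miRNAs (7.66%), of which 24 had all 3 RE libraries above all 3 C libraries (5.57%) and 9 had them below (2.09%). Of the 12 miRNAs past the criterion, 8 were among these. Because fold changes depend on the scaling, they are best read against the median of all miRNAs, which was 0.06 on the log2 scale with TMM, 0.01 with DESeq2's size factors and −0.10 with library totals. With library totals, 5 higher and 9 lower miRNAs met the criterion. Over all miRNAs 241 had a fold change above 0 (55.9%) and 190 below 0 (44.1%).

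The miRNAs on which the comparison turns have the following mature sequences in the count table, written 5′ to 3′ with the seed in capitals. They are shown because a shared seed means shared predicted targets, and because several of the miRNAs past the criterion are relatives.
miR-184-3p: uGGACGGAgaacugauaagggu
miR-200a-3p: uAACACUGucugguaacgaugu
miR-200b-3p: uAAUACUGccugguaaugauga
miR-200c-3p: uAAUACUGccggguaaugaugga
miR-429-3p: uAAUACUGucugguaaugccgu
miR-206-3p: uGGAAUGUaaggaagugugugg
miR-128-1-5p: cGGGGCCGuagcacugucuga
miR-34a-5p: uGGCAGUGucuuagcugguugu
miR-448-3p: uUGCAUAUguaggaugucccau
miR-3552: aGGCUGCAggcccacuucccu
miR-1298-3p: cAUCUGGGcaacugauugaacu
miR-7a-5p: uGGAAGACuagugauuuuguugu
miR-7b-5p: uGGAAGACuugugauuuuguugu
miR-344f-3p: cUCUAGCCaggaccugacuac
miR-27a-3p: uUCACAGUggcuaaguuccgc
miR-27b-3p: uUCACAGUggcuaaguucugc
miR-181a-5p: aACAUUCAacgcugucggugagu
miR-181b-5p: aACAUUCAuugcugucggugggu

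Of the seeds carried by several of the miRNAs tested, those with 2 members at an unadjusted p under 0.05 in edgeR are given first, so they were chosen by their values. The seed AAUACUG of miR-200b-3p, miR-200c-3p and miR-429-3p had 3 of 3 members higher, UCACAGU of miR-27 had 2 of 2 higher, and ACAUUCA of the 4 miR-181 5p arms had 4 of 4 higher. The seed GGAAGAC of miR-7 had 4 of 4 members lower and UGCAUAU of miR-448-3p had 2 of 2 lower, the members in both cases being miRNAs with forms of other length. Among the remaining seeds some agreed, such as GAGGUAG of let-7 with 9 of 9 higher. Others were split, such as AGCAGCA of miR-16-5p with 4 higher and 1 lower, and GUAAACA of miR-30 with 4 higher and 2 lower. Both arms were tested for 111 hairpins, and in 78 of these the arms lay on the same side of 0, with r = 0.48 between the 2 arms' fold changes as a description across hairpins, which are not independent replicates.

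miR-184-3p had the smallest p of all miRNAs. It is conserved from flies to mammals and is known in mouse brain from neural stem cells and from eye tissues such as lens and cornea. It was at 36.2, 36.9 and 37.3 CPM in C1, C2 and C3 and at 98.7, 164 and 110 CPM in RE3, RE4 and RE5. The C libraries were nearly equal, and each RE library lay above all of them. The log2 fold change was 1.75 (standard error 0.37, unadjusted p = 6.67e-04, adjusted p = 0.288 in edgeR), 1.76 with the term (adjusted p = 0.0205) and 1.48 in the other 8 libraries (adjusted p = 0.0405). miR-184-3p kept the criterion under all 24 alternatives run, and without any 1 library its fold change was 1.51 to 1.84. It was at 46.8 ± 10.6 CPM in the E group (SD, n = 3), and the RE group differed from E by 1.40 on the log2 scale (unadjusted p = 0.00291, adjusted p = 0.627 in edgeR). In the F group it averaged 82.4 CPM. Its gene lies on chromosome 9 of GRCm38, minus strand, with the mature 3p arm at 89802263 to 89802284. The RefSeq hairpin is shown to place both arms, in capitals; the 5p arm was not among the miRNAs tested.
Mir184 hairpin: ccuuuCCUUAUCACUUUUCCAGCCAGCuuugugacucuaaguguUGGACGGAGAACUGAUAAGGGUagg

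The miR-200 family, which keeps epithelial cells in their state by repressing the transcription factors Zeb1 and Zeb2, was higher in the RE group in all 4 members tested, 3 of them past the criterion, which 7 of all 431 miRNAs passed on the higher side (1.62%). Their median log2 fold change was 1.74, against 0.06 over all 431 miRNAs. miR-200b-3p was at 15.99, 7.18 and 13.1 CPM in C1 to C3 and at 33.9, 43.8 and 54.6 CPM in RE3 to RE5, so that the groups did not overlap. Its log2 fold change was 1.88 (standard error 0.65, unadjusted p = 0.0149, adjusted p = 0.744 in edgeR). miR-429-3p was at 3.48, 5.27 and 4.15 CPM in the C group and at 11.6, 23.1 and 19.3 CPM in the RE group (2.04, standard error 0.82). miR-200a-3p was at 48.7, 23.0 and 47.0 CPM against 72.6, 109 and 176 CPM (1.60, standard error 0.65). In each of these 3 every RE library was above every C library. miR-200c-3p, which comes from another chromosome, was at 2.76 to 4.79 CPM in the C group and at 3.87 to 9.99 CPM in the RE group, and the groups overlapped (1.03, standard error 1.16).

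The hairpins of miR-200b, miR-200a and miR-429 lie together on chromosome 4, minus strand, between 156053905 and 156055750, in an intron of Ttll10, and miR-200c-3p lies on chromosome 6. The members differed in which RE library was highest: miR-200a-3p was highest in RE5, and miR-429-3p in RE4. Without C2, the library with the lowest miR-200a-3p and miR-200b-3p, their fold changes were 1.29 and 1.56 and both left the criterion, as did miR-429-3p (2.19). miR-200a-3p also left it without C3 (1.70) or RE5 (1.13), and miR-429-3p without C1 (1.87), C3 (1.95), RE4 (1.84) or RE5 (1.90). Both left it as well in each fit with limma on the deposited scores. With no filter on low counts, where 1060 miRNAs were tested, all 3 members of the chromosome 4 cluster had an adjusted p under 0.05 in edgeR. All 4 members stayed higher under each scaling and without any 1 library of the groups, with a median of at least 1.37. Higher values were not particular to RE. The 4 members had a median log2 difference from C of 2.70 in the F group and 0.88 in the E group. Their sum was 40.2 to 71.6 CPM in the C libraries, 76.2 to 735.5 CPM in F, 75.8 to 111.6 CPM in E and 121.9 to 258.5 CPM in RE. In the F group miR-200b-3p was at 195, 21.4 and 77.2 CPM in F1, F2 and F3. F1 was far above the others, and F2 was nearest to control but above every C library. In the E group miR-200b-3p was at 18.9 ± 4.18 CPM, from which a difference of RE was not shown (1.22 on the log2 scale, unadjusted p = 0.0799 in edgeR). Other epithelial miRNAs of the lists, from miR-31 and miR-203, were lower in both cases tested (median −0.35), and the sense organ cluster of miR-183 lay on both sides of 0. Whether epithelial tissue in the dissections contributed was not tested.

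**Figure D2:**
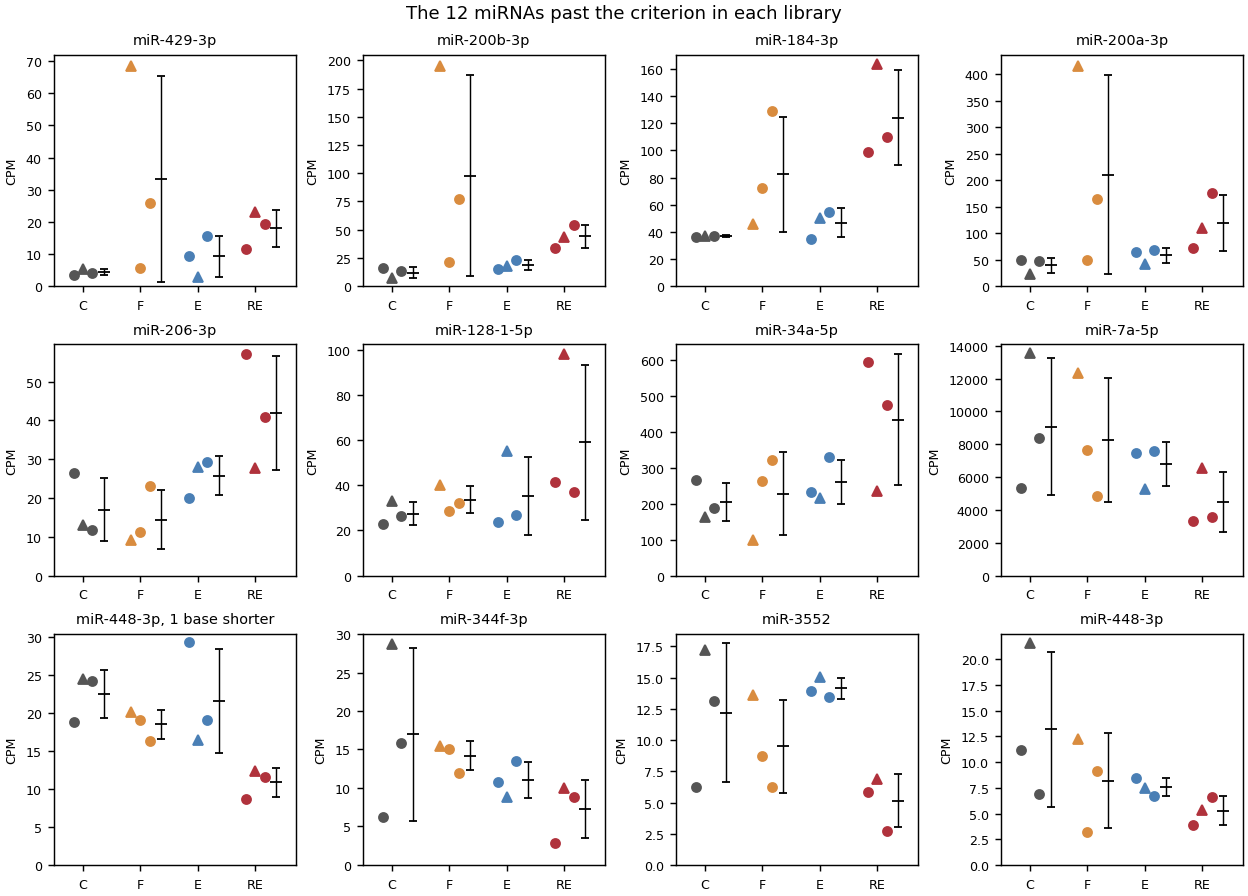
CPM of the 12 miRNAs past the criterion in every library of the 4 groups, on linear axes from 0, with triangles for the 4 libraries led by let-7g-5p and black bars for mean and SD (n = 3). The C values of miR-184-3p lie between 36.2 and 37.3 CPM and its RE values between 98.7 and 164 CPM.

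Among the lower miRNAs, those made from Htr2c stood together. Htr2c, on the X chromosome (146962513 to 147197277, plus strand), encodes the serotonin 2C receptor, which is expressed by neurons of the amygdala and strongly by the epithelium of the choroid plexus. Its introns carry the genes of miR-3552, miR-1912, miR-1264, miR-1298 and miR-448. All 8 mature forms from this gene that were tested were lower in the RE group, with a median log2 fold change of −0.79, and 3 of the 5 lower miRNAs past the criterion were among them. The 8 share 5 hairpins and a single host gene, and so are not independent of each other; 190 of all 431 miRNAs were lower (44.1%).

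miR-1298-3p, the passenger arm of its hairpin, had the smallest p of the lower miRNAs. It was at 346, 311 and 409 CPM in C1 to C3 and at 158, 245 and 184 CPM in RE3 to RE5. Each RE library lay below each C library, and the log2 fold change was −0.86 (standard error 0.20, unadjusted p = 0.0015, adjusted p = 0.324 in edgeR). DESeq2 gave it an adjusted p under 0.05, as did edgeR with the term (0.0205) and in the other 8 libraries (0.00527, log2 fold change −1.17). The E group was at 338 ± 8.87 CPM, close to control, and the RE group differed from E by −0.79 (unadjusted p = 0.00266, adjusted p = 0.627 in edgeR). The F group was at 272 ± 14.8 CPM, and each F library also lay below each C library (log2 difference from C −0.38, unadjusted p = 0.085 in edgeR). The far more abundant arm, miR-1298-5p, was at 4261, 1045 and 3960 CPM in the C group and at 2414, 361 and 3679 CPM in the RE group. It was lowest in C2 and RE4, the libraries of the let-7g-5p set, so its groups overlapped (−0.52, standard error 0.95; −0.80 with the term, unadjusted p = 0.00211). The RefSeq hairpin holds both arms, shown in capitals with 5p before 3p, on the plus strand of chromosome X.
Mir1298 hairpin: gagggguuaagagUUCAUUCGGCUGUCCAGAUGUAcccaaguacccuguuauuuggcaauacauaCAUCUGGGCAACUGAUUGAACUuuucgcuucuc

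miR-448-3p was counted in forms of different length, of which the shorter is listed by the authors as a predicted miRNA. They differ at the 3′ end by the base in capitals and share a seed, and are shown because the counting splits their reads.
miR-448-3p: uugcauauguaggaugucccaU
miR-448-3p, 1 base shorter: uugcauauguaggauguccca
The shorter form was at 18.8, 24.4 and 24.2 CPM in the C group and at 8.71, 12.3 and 11.6 CPM in the RE group (log2 fold change −1.04, standard error 0.29, unadjusted p = 0.00457, adjusted p = 0.656 in edgeR). The annotated form was at 11.1, 21.6 and 6.91 CPM against 3.87, 5.38 and 6.61 CPM (−1.30, standard error 0.53). In both forms each RE library lay below each C library. Summed, they were at 35.7 ± 8.95 CPM in the C group and 16.2 ± 3.10 CPM in the RE group (SD, n = 3), and the sums did not overlap. The E group had a sum of 29.2 ± 7.55 CPM, and the shorter form differed between RE and E by −0.97 (unadjusted p = 0.00679 in edgeR). Without C2, where it was highest, the annotated form was at −0.77, and it also left the criterion without RE3 (−1.18), without RE4 (−1.29) and in the other 8 libraries (−0.73). The shorter form left it by size alone, without RE3 (−0.95) and with limma on the deposited scores at a pseudocount of 1 (−0.97).

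miR-3552 was at 6.26, 17.2 and 13.1 CPM in the C group and at 5.80, 6.92 and 2.76 CPM in the RE group, with C1 inside the range of RE (−1.28, standard error 0.48). It lay at 14.1 ± 0.808 CPM in the E group and differed between RE and E by −1.47 (unadjusted p = 0.0115 in edgeR). It left the criterion without C2 (−0.97), without RE5 (−1.02) and in each limma fit (−0.67 to −0.79). miR-1264-3p was at 136, 248 and 146 CPM against 69.7, 164 and 98.7 CPM (−0.67, standard error 0.45), and its 5p arm at 45.2 to 140 CPM against 33.9 to 80.0 CPM (−0.71, standard error 0.53). Both arms were highest in C2 and, among RE libraries, in RE4. miR-1912-3p was at 8.29 to 11.97 CPM against 2.90, 3.08 and 13.2 CPM (−0.60, standard error 0.65), with RE5 above all C libraries.

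All 8 miRNAs of Htr2c were lower in RE4 than in C2, and all 8 were also lower in the mean of RE3 and RE5 than in that of C1 and C3. They remained 8 of 8 lower with library totals, with DESeq2's size factors, and without any 1 of the C or RE libraries, with medians from −1.09 to −0.71. An unadjusted p under 0.05 was reached by 4 of them (10 of all 431 were lower at that p, 2.32%) and by 7 with the term (29 of all, 6.73%). Without C2 it was reached by 2, with all 8 still lower (median −0.87). In the E group their median log2 difference from C was −0.11, where the same C libraries served as reference. For the 6 tested forms of miR-1264, miR-1298, miR-1912 and miR-448, the median difference from C was −0.37 in the F group and −0.18 in the E group. Choroid plexus, where Htr2c is strongly expressed, is marked by miR-204-5p, which was at 812, 2229 and 987 CPM in C1 to C3 and at 726, 1030 and 754 CPM in RE3 to RE5. The 6 tested miRNAs of the list for choroid plexus and ependyma summed to 1193, 3084 and 1393 CPM in the C group and to 1753, 1339 and 1275 CPM in the RE group. C2 thus had the highest choroid plexus signal, as it had the highest miR-448-3p, miR-3552 and miR-1264, while miR-1298-3p was lowest in C2 among the C libraries. Of this list 4 members were higher and 2 lower in the RE group, from −0.683, which is the value of miR-204-5p, to 0.731 (median 0.11). With the term, 1 member was lower at an unadjusted p under 0.05 in edgeR and 0 were higher. The list also holds forms of miR-34b, miR-34c and miR-449a, so its median does not describe miR-204-5p. In miR-204-5p, RE3 and RE5 lay below all C libraries and RE4 within their range. It stayed lower in the RE group under all 24 alternatives. The part of choroid plexus in the Htr2c values was not tested. In bulk tissue, fewer cells of a type and less RNA per cell cannot be told apart.

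**Figure D3:**
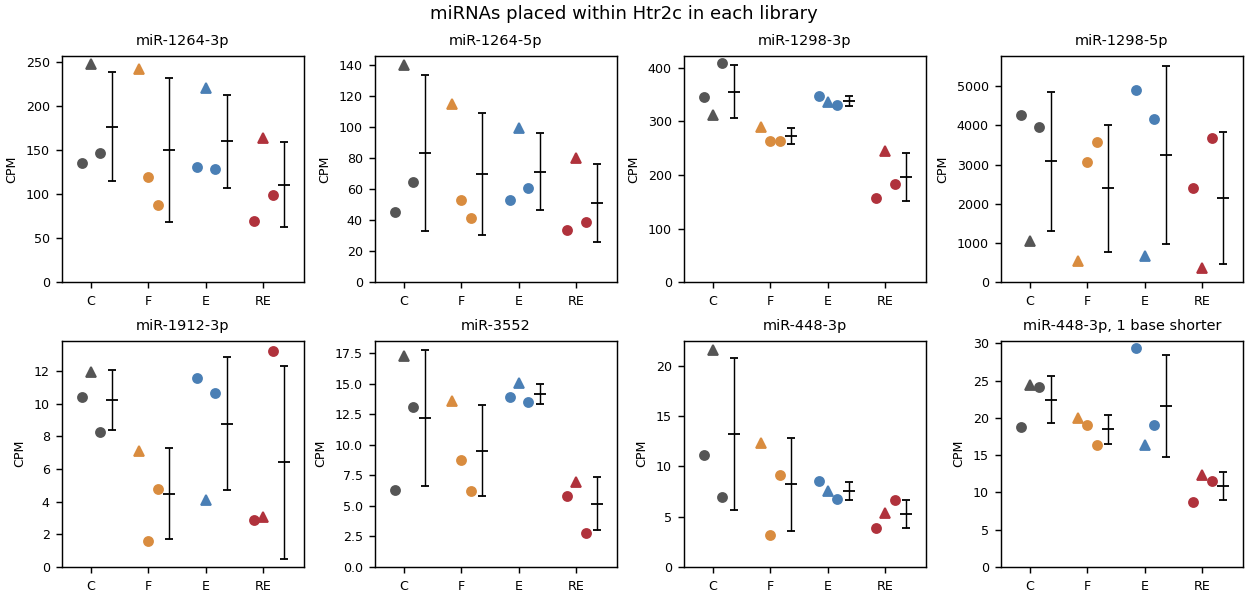
CPM of the 8 mature forms made from Htr2c in every library, on linear axes from 0, with triangles for the 4 libraries led by let-7g-5p and black bars for mean and SD (n = 3). miR-1298-3p and both forms of miR-448-3p have all RE values below all C values, while the other 5 overlap.

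The miR-7 5p arms were lower as well. miR-7 is enriched in pituitary, hypothalamus and other neuroendocrine cells, and in mouse brain it is bound and controlled by the circular RNA Cdr1as. Its mature forms in the count table include predicted forms with 1 more base at the 3′ end, in capitals below, whose reads cannot be fully told apart from those of the annotated form.
miR-7a-5p: uggaagacuagugauuuuguugu
miR-7a-5p, 1 base longer: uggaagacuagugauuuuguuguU
miR-7b-5p, 1 base longer: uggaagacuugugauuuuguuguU
miR-7a-5p was at 5308, 13530 and 8389 CPM in C1 to C3 and at 3297, 6561 and 3594 CPM in RE3 to RE5 (log2 fold change −1.02, standard error 0.43, unadjusted p = 0.0388, adjusted p = 0.76 in edgeR). The longer form, more abundant, was at 11560, 18992 and 16332 CPM against 8058, 11319 and 8790 CPM (−0.74, standard error 0.29). The annotated form overlapped between the groups through C1 and RE4, and the longer form did not overlap. Their sum was 24704 ± 7827 CPM in control mice, 13873 ± 3508 CPM after retrieval-extinction and 19295 ± 4566 CPM after extinction alone (SD, n = 3). miR-7b-5p was at 2079, 6742 and 3079 CPM against 1562, 3484 and 1868 CPM (−0.78, standard error 0.48), with the highest values again in C2 and RE4. The passenger arm miR-7a-2-3p lay at −0.86 (standard error 0.48). The passenger arm of the other hairpin, miR-7a-1-3p, was not lower, at 54.9, 46.9 and 64.2 CPM in the C group and at 68.7, 44.6 and 73.3 CPM in the RE group, with overlap.

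Within the sets of libraries the miR-7a-5p difference was much the same, −1.04 for RE4 minus C2 and −0.96 for RE3 and RE5 against C1 and C3. With the term it was −1.01 (unadjusted p = 0.00405) and in the other 8 libraries −1.02 (unadjusted p = 0.00127). Without C2, the library with the most miR-7, it was −0.64, and it left the criterion also without RE3 (−0.89) or RE5 (−0.97) and in a fit of RE and C alone (unadjusted p = 0.0543). The RE and E groups differed by −0.60 (unadjusted p = 0.193 in edgeR), so a difference from plain extinction was not shown. miR-7a lies in an intron of Hnrnpk on chromosome 13 (58392841 to 58392863, minus strand) and, as another copy with the same mature sequence, on chromosome 7 (78888295 to 78888317, plus strand).

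miR-206-3p, known from skeletal muscle and in brain as a repressor of Bdnf, was at 26.4, 12.9 and 11.7 CPM in the C group and at 57.1, 27.7 and 40.8 CPM in the RE group. Each RE library lay above each C library, although RE4 exceeded C1 only narrowly (1.30, standard error 0.44, unadjusted p = 0.0141, adjusted p = 0.744 in edgeR). It left the criterion without C2 (1.08), C3 (1.05) or RE3 (0.98), and in each limma fit (0.90 to 0.97). miR-1a-3p, the muscle miRNA with the same seed, was at 962, 468 and 823 CPM against 1111, 988 and 1270 CPM, also without overlap (0.58, standard error 0.38, unadjusted p = 0.151). In the E group miR-1a-3p was at 1141 ± 126 CPM and miR-206-3p at 25.8 ± 4.95 CPM. Of the 3 tested miRNAs of the muscle list, 2 were higher and miR-499-5p was at −0.03; whether muscle tissue was carried into the dissections was not tested.

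miR-34a-5p, a target of p53 that is linked in mice to fear memory consolidation in the amygdala, was at 265, 162 and 188 CPM in the C group and at 593, 234 and 473 CPM in the RE group. RE4 lay within the range of C, while RE3 and RE5 lay above it (1.08, standard error 0.45, unadjusted p = 0.0364, adjusted p = 0.746 in edgeR). In the other 8 libraries the log2 fold change was 1.20 with an adjusted p of 0.035, and with the term it was 0.997 (unadjusted p = 0.00145), just short of the criterion. It dropped below the criterion without C2 (0.89), C3 (0.98), RE3 (0.75) or RE5 (0.95), and without E1 (1.05), E2 (1.04) or F2 (1.04). It did so too with library totals (0.94) and in each limma fit (0.77 to 0.78). Of the 4 tested miRNAs of the miR-34 family 3 were higher, and all 4 were higher in the other 8 libraries (median 1.13) and also without C2 or without RE4. Among its relatives from ciliated cells, miR-34c-5p was at 286, 731 and 330 CPM in the C group and at 891, 239 and 420 CPM in the RE group. It was highest in RE3 and C2, and RE4 minus C2 was at −1.61 on the log2 scale while RE3 and RE5 against C1 and C3 were at 0.99.

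miR-128-1-5p, the passenger arm of a hairpin whose 3p arm is among the most abundant neuronal miRNAs, was at 23.0, 33.0 and 26.3 CPM in the C group and at 41.6, 98.4 and 36.9 CPM in the RE group. The groups did not overlap, but RE4 was far above the other RE libraries (1.10, standard error 0.43, unadjusted p = 0.0274, adjusted p = 0.744 in edgeR). Without RE4 the log2 fold change was 0.52, in the other 8 libraries 0.64, and with the term 1.02 (adjusted p = 0.0454 in edgeR). It left the criterion also without C1 (0.93) or C3 (1.01), with library totals (0.91) and in each limma fit (0.72 to 0.76). The 3p arm, miR-128-3p, which comes from a second hairpin on chromosome 9 as well, was at 61129, 39006 and 64316 CPM against 68115, 64315 and 60477 CPM. It overlapped between the groups, and only C2 lay apart, below the other 5 libraries. The RefSeq hairpin on chromosome 1 (plus strand) carries both arms, in capitals.
Mir128-1 hairpin: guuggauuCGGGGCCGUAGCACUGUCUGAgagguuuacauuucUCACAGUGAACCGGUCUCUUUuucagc

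miR-344f-3p, of a rodent family with several genes on chromosome 7, had the least stable of the 12 values past the criterion. It was at 6.26, 28.7 and 15.9 CPM in the C group and at 2.90, 9.99 and 8.82 CPM in the RE group, with C1 inside the range of RE (−1.20, standard error 0.54, unadjusted p = 0.0486, adjusted p = 0.872 in edgeR). It left the criterion in 14 of 23 alternatives, among them each fit without 1 library other than C1, E2 and RE4, and was at −0.60 without C2.

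The paired clusters of miR-23, miR-27 and miR-24, found on chromosome 8 (84208518 to 84208921) and chromosome 13 (63300484 to 63301275, within 2010111I01Rik), were higher in all 10 mature forms tested, by modest amounts (median 0.50). They are known from endothelium, muscle and glia. miR-27b-3p, one of the abundant miRNAs of the BLA, was at 16615, 13720 and 16523 CPM in C1 to C3 and at 23202, 22278 and 19852 CPM in RE3 to RE5. All RE libraries lay above all C libraries (0.48, standard error 0.17, unadjusted p = 0.0192, adjusted p = 0.744 in edgeR). miR-27a-3p, with the same seed from the other cluster, was at 153, 122 and 164 CPM against 206, 203 and 195 CPM (0.46, standard error 0.18). miR-23b-3p was at 515 to 545 CPM against 594 to 686 CPM (0.25, standard error 0.19), again without overlap.

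miR-24-3p was counted as an annotated form and as a predicted form without the last 2 bases, shown in capitals, which was the more abundant.
miR-24-3p: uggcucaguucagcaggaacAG
miR-24-3p, 2 bases shorter: uggcucaguucagcaggaac
The shorter form was at 990, 788 and 866 CPM in the C group and at 1303, 1139 and 1236 CPM in the RE group (0.48, standard error 0.18, unadjusted p = 0.0218; 0.48 with the term, adjusted p = 0.0454 in edgeR). The annotated form was at 461, 218 and 378 CPM against 589, 239 and 624 CPM (0.46, standard error 0.46), where the low values are those of C2 and RE4. miR-24-2-5p showed the split most: it was at 483 and 430 CPM in C1 and C3 but at 41.2 CPM in C2, and at 665 and 733 CPM in RE3 and RE5 but at 76.1 CPM in RE4. Its main log2 fold change was 0.63 with a standard error of 1.13, and with the term 0.69 with an adjusted p of 0.0205. All 10 forms stayed higher with each scaling and with the term, and 9 of 10 stayed higher without C2, RE3 or RE4.

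The abundant miR-181 family, known from brain and lymphocytes, had 2 of 6 tested members higher at an unadjusted p under 0.05, as had 14 of all 431 (3.25%). With library totals, and without C1, C2, RE3 or RE5, 0 of them had. miR-181a-5p was at 1588, 1403 and 1673 CPM in the C group and at 2379, 1867 and 2293 CPM in the RE group (0.49, standard error 0.18, adjusted p = 0.744 in edgeR; 0.48 with the term, adjusted p = 0.0454). miR-181b-5p, cut from the same transcripts on chromosomes 1 and 2, was at 517, 558 and 484 CPM against 741, 718 and 669 CPM (0.45, standard error 0.17). Both had all RE libraries above all C libraries. miR-181c-5p and miR-181d-5p, which share their seed but come from chromosome 8, overlapped between the groups. They were at 112 to 132 CPM and at 868 to 894 CPM in the C group, against 99.2 to 159 CPM and 841 to 947 CPM in the RE group. RE and E differed for miR-181a-5p by 0.43 on the log2 scale (unadjusted p = 0.0381 in edgeR).

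The Dlk1-Dio3 region of chromosome 12 is an imprinted locus whose maternal transcripts yield a large miRNA cluster that is expressed in neurons. Of its 47 tested miRNAs from the Mirg cluster, 36 were lower and 11 higher, where 44.1% of all miRNAs were lower, with a median of −0.14 that stood at −0.33 with library totals. An unadjusted p under 0.05 was reached by 3, against 24 of all 431 (5.57%). miR-376b-3p was at 312, 266 and 346 CPM in the C group and at 196, 206 and 216 CPM in the RE group. All RE libraries were below all C libraries (−0.58, standard error 0.18, unadjusted p = 0.00856, adjusted p = 0.744 in edgeR), and DESeq2 called it at an adjusted p of 0.035. The E group, at 214 ± 4.82 CPM, lay close to RE (log2 difference −0.05). miR-380-5p was at 171, 176 and 195 CPM against 118, 122 and 127 CPM (−0.56, standard error 0.23). miR-411-3p went the other way, at 18.8, 15.3 and 18.7 CPM against 30.0, 26.9 and 25.9 CPM (0.65, standard error 0.29). The 14 tested miRNAs antisense to Rtl1 in the same region lay evenly, 7 higher and 7 lower, with a median of −0.02.

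Other miRNAs at an unadjusted p under 0.05 were miR-873a-5p, at 13.2, 12.9 and 20.03 CPM in the C group against 6.77, 7.69 and 9.92 CPM in the RE group (−0.89, standard error 0.32), and miR-497a-5p, at 15.3 to 17.4 CPM against 19.99 to 26.1 CPM (0.57, standard error 0.23). Neither overlapped between the groups. miR-195a-5p, clustered with miR-497a on chromosome 11 and sharing its seed, was at 98.7, 63.7 and 113 CPM against 168, 83.0 and 162 CPM (0.59, standard error 0.43).

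Among miRNAs that neuronal activity switches on, miR-132-3p, induced through CREB, was at 1923, 2382 and 1661 CPM in the C group and at 2384, 2525 and 2527 CPM in the RE group. RE3 exceeded C2 by a margin of only a few CPM (0.32, standard error 0.18, unadjusted p = 0.103, adjusted p = 0.998 in edgeR). The E group was lower, at 1719 ± 98.3 CPM, and the RE group differed from E by 0.53 (unadjusted p = 0.0133, adjusted p = 0.958 in edgeR). Its 5p arm was at 271, 42.1 and 249 CPM against 412, 52.3 and 444 CPM, the low values being C2 and RE4 (0.70, standard error 0.99; 0.61 with the term, adjusted p = 0.0454 in edgeR). Of the 6 tested miRNAs of this list, which includes miR-134 and miR-212, 3 were higher and 3 lower (median 0.14). Of the 10 tested miRNAs linked in rodents to fear learning, 6 were higher and 4 lower (median 0.19), and 1, miR-34a-5p, reached an unadjusted p under 0.05.

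Differences in the most abundant families were small and depended on the libraries and the scaling. Of the 17 tested let-7 miRNAs, which rise as cells differentiate, 15 were higher (median 0.25) and 0 reached an unadjusted p under 0.05. In the other 8 libraries 6 were higher and 11 lower, and without RE4, in which let-7g-5p was at 172228 CPM against 98993 to 115509 CPM in the C group, 5 were higher and 12 lower. Of 13 tested members of the miR-30 family and miR-384, 10 were higher (median 0.27), with miR-30c-5p at 8279 to 8945 CPM against 9239 to 12318 CPM (0.29, standard error 0.20). miR-26a-5p was at 33125, 32118 and 32315 CPM against 39829, 43866 and 38321 CPM, without overlap (0.32, standard error 0.18). miR-148a-3p, the leading miRNA of the other libraries, was at 17217 CPM in C2 and 19074 CPM in RE4 and between 130590 and 150899 CPM in the remaining 4.

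Marker lists of other cells showed no miRNA past the criterion apart from those named. The 2 endothelial miRNAs were at −0.02 in the median. Those of smooth muscle and pericytes, miR-143 and miR-145, were lower in all 3 forms. miR-143-3p was at 13382, 2706 and 12975 CPM in the C group against 7391, 4324 and 7630 CPM in the RE group (−0.59, standard error 0.59). The difference had opposite signs within the sets, 0.68 for RE4 minus C2 and −0.81 for RE3 and RE5 against C1 and C3, and in the other 8 libraries the log2 fold change was −0.84 (adjusted p = 0.0405 in edgeR). Against E, where it was at 17662 ± 8600 CPM, the RE group differed by −1.45 (unadjusted p = 0.034), and for miR-145a-5p by −0.997 (unadjusted p = 0.00668, adjusted p = 0.732 in edgeR). The 3 tested oligodendrocyte miRNAs were higher (median 0.35), but without RE3 only 1 was (median −0.05). The most abundant of them, miR-219a-2-3p, was at 2940 to 3507 CPM in the C group and at 3177 to 5020 CPM in the RE group, with overlap. The erythrocyte and microglial lists had medians of 0.18 and 0.06. miR-187-3p was at 37.6, 12.9 and 14.5 CPM against 48.4, 16.9 and 29.2 CPM (0.54, standard error 0.57).

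**Figure D4:**
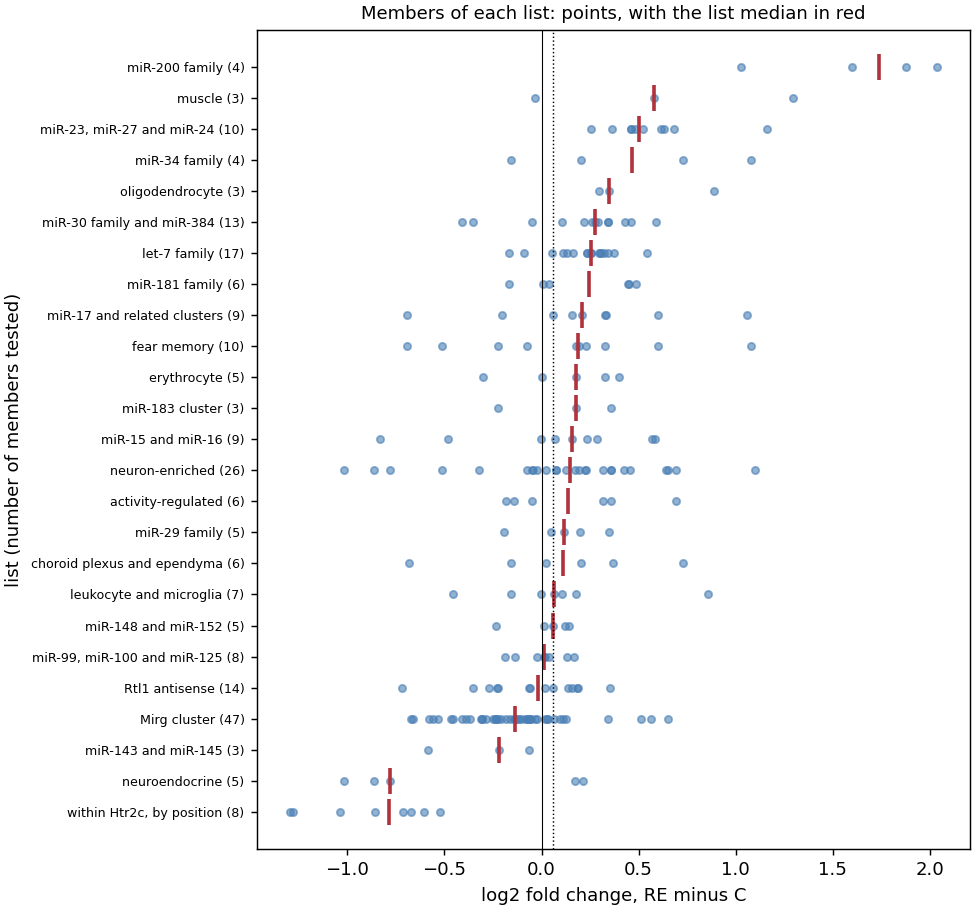
Log2 fold change, RE minus C, of each tested member (points) of the lists with at least 3 tested members, with the list median in red and the median of all 431 miRNAs as a dotted line. The miR-200 family (median 1.74) lies at the top and the miRNAs of Htr2c (median −0.79) at the bottom.

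Because C2 and RE4 belong to one set of libraries, the comparison could be made within each set, RE4 minus C2 and the mean of RE3 and RE5 minus the mean of C1 and C3. The 2 differences had the same sign for 253 of 431 miRNAs (58.7%), with r = 0.26 across miRNAs, and r = 0.35 over the 193 miRNAs with a mean of at least 100 CPM; miRNAs of 1 hairpin or transcript are not independent points. The differences for RE4 minus C2 and for the other 4 libraries were 2.14 and 1.49 for miR-184-3p, 1.07 and 1.43 for miR-206-3p, and −0.96 and −1.05 for the shorter form of miR-448-3p. They were 2.53 and 1.54 for miR-200b-3p, 2.22 and 1.23 for miR-200a-3p, and 2.03 and 1.85 for miR-429-3p. Each of the 24 miRNAs with an unadjusted p under 0.05 also had one with the term, where 78 did (18.1%). The 24 were chosen in these same libraries, and the term lowers the estimated spread, so this is not separate evidence. The same holds for the differences within the sets.

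**Figure D5:**
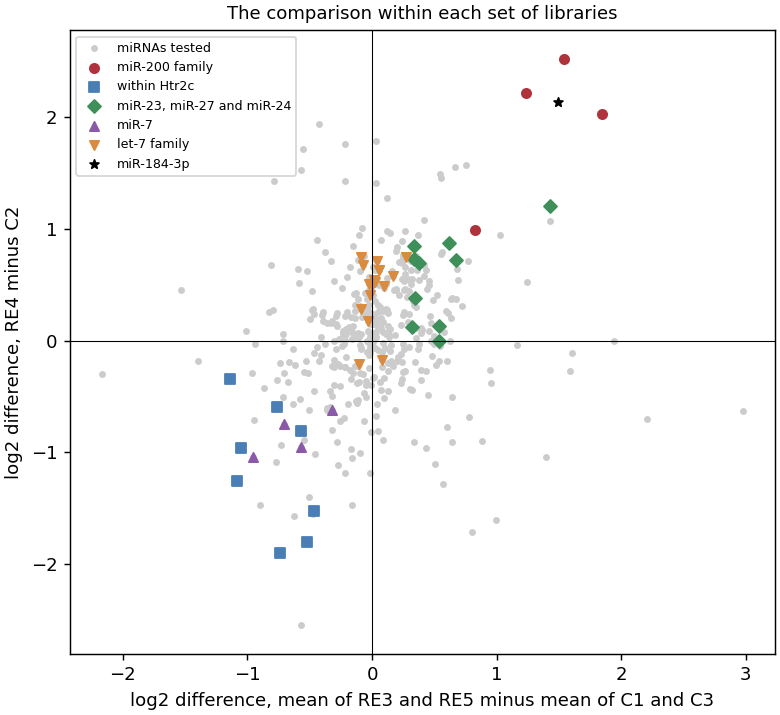
Log2 difference of each of the 431 miRNAs between RE4 and C2 (vertical axis) and between the means of RE3 and RE5 and of C1 and C3 (horizontal axis). The miR-200 family and miR-184-3p lie at the upper right, the 8 miRNAs of Htr2c and the 4 forms of miR-7 in the lower left, and the let-7 family near 0 on the horizontal axis.

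Tested directly against plain extinction, 1 miRNA was higher (0.232%) and 3 were lower (0.696%) in the RE group at the criterion, none at an adjusted p under 0.05, and 10 (2.32%) at an unadjusted p under 0.05 in edgeR. The higher one was miR-184-3p, and the lower ones were miR-3552, miR-143-3p and miR-143-5p. Of the 12 miRNAs past the criterion against C, 3 were among those 10: miR-184-3p, miR-3552 and the shorter form of miR-448-3p. The other 9 did not reach that unadjusted p. With none at an adjusted p under 0.05, a difference between RE and E was not shown for any of the 12.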

How the data were processed

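The authors used Cutadapt for trimming, miRDeep2 to predict further miRNAs and Novoalign to align reads to mouse precursors. They deposited a count of tags for every mature miRNA, and a rounded normalized score, which the paper describes as tags per 1e+06 aligned. Over all lines these scores summed to between 286926 (RE3) and 346549 (C2) in a library, not to 1e+06. The submitters' processing notes name CASAVA 1.8 and hg38, a human build; for the miRNA reference, a version was not given in the sources used here. Of 1169 lines, 109 repeats of a sequence with its counts were dropped. Columns of unknown sample numbered 0.

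Counts were tested with edgeR 4.0.16 in R 4.3.3 (TMM, filterByExpr with a minimum count of 10, quasi-likelihood, all 12 libraries in 1 fit), p-values adjusted by Benjamini-Hochberg over 431 miRNAs. The steps were tested on simulated data without a library set and with a dispersion below the 0.184 of the main fit. That test therefore does not show how the main fit performs on these libraries. Alternatives were DESeq2 1.42.0, other scalings and filters, RE and C alone, annotated miRNAs alone, limma 3.58.1 on the deposited scores (log2, pseudocounts 1 and 0.5, which understate changes of low miRNAs), each library left out, and, chosen after seeing the data, the library-set term and the other 8 libraries. Members and lists were chosen with earlier results of these data known. The text names miRNAs that the study names, those past the criterion, the 10 of smallest p in each direction, up to 8 without overlap in each direction at 20 CPM or more, the 8 most abundant and the 4 most abundant of each list, and a few others, such as hairpin arms and relatives, chosen after their values were seen. Of 388 annotated miRNAs tested, 340 matched a RefSeq name in GRCm38.p6, 337 with the same sequence; 24 of 43 predicted ones share an annotated mature sequence. Positions and host genes are from RefSeq and GENCODE annotations of GRCm38. No replicate pair agreed within sampling noise (chi-square divided by its degrees of freedom was 37.3 to 1130).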

Additional observations from a re-analysis of the deposited data

How the results depend on the processing

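The 12 miRNAs past the criterion became 20 without a filter on low counts (11 higher, 9 lower), 6 with a mean count of at least 50, and 6 (2 higher, 4 lower) with limma at a pseudocount of 1; fewer miRNAs are tested under the stricter filter, and the cause of the limma value was not tested. The other settings gave 8 to 16. Leaving out 1 library gave 7 to 20: 7 without C3 or RE3 and 20 without RE4 (7 higher, 13 lower), and without C2 only 3 of the 12 were among the 9 that passed. The lower ones numbered 5 in the main fit, 10 without C1 and 2 without RE3; the higher ones 7, and 2 without C3. An adjusted p under 0.05 was reached by 0 in edgeR, 3 with DESeq2, 5 without a filter (miR-184-3p, miR-200a-3p, miR-200b-3p, miR-429-3p and a predicted miRNA), 7 with the library-set term and 4 in the other 8 libraries, and by 0 under the remaining settings and without any 1 library. Fold changes were followed through the settings for miRNAs with an unadjusted p under 0.05 in edgeR and for some of the others named. Of these values, 1045 kept their direction and side of the criterion, 71 lost the criterion, 19 gained it and none reversed. Those followed were chosen in part by their values in these same libraries, so the lack of reversals is not separate evidence. Directions could change for others named, as in the let-7 family without RE4. The muscle list, with miR-499-5p, had 2 of 3 higher in the main fit and 3 of 3 without C3 or RE4. No paired analysis was possible because RE and C share a single replicate number, 3. Each group held 3 mice and no batch was named. Replicates differed by more than counting error, so the spread between mice or libraries, as well as depth, limits these values.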

Other observations

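Of 28 clusters of hairpins within 10 kb of each other that held at least 3 tested miRNAs, 13 had all tested members higher in the RE group and 3 had all of them lower. The 3 lower ones are described here, chosen after their values were seen. The imprinted cluster on chromosome 2 (174267047 to 174267585, minus strand) had all 3 tested mature forms of miR-296 and miR-298 lower in the RE group, with a median log2 fold change of −0.71. The cluster on chromosome X (53047997 to 53054349, minus strand), which makes miR-322, miR-503, miR-542 and miR-450a and is known from muscle differentiation and cell cycle exit, had all 5 tested forms lower (median −0.48). The third, on chromosome 12 (109611500 to 109618336, plus strand), had all 4 tested forms of miR-341 and miR-370 lower (median −0.19). In these 3 clusters 0 forms reached an unadjusted p under 0.05 in edgeR, and neighbours from a single transcript are not independent of each other.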
